A study of Mus musculus with 12 samples.

Results

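The replication-dependent histone genes were examined in bulk RNA sequencing of cultured mouse hematopoietic stem cells (HSCs). Members were the protein-coding genes of the deposited table whose names begin with Hist1h, Hist2h, Hist3h or Hist4h, counted once per gene ID, which gave 64 of the 40481 genes. By cluster they comprised 52 Hist1, 9 Hist2, 2 Hist3 and 1 Hist4 genes. By protein class they comprised 6 H1, 18 H2A, 15 H2B, 12 H3 and 13 H4 genes. The rule of choice used names and biotype only, not measured values, but it was set with earlier results of these data known. Each of the 4 groups had 3 libraries. Per the labels, genotype was wild type (WT) or iE/R, an inducible form of ETV6-RUNX1, the fused transcription factor of a childhood leukemia of B-cell precursors. The source of the HSCs was fetal liver (E14.5) or 8-week bone marrow. All 12 cultures, WT included, were kept for 3 days in HSC expansion medium with 1 µg/mL doxycycline, the inducer. The promoter that drives the fusion and the number of animals behind each library are not given in the sources used here, so the p-values below measure the spread between these libraries, which may be technical. Library totals ranged from 32.3 to 64.5 M reads, and a floor of 3 reads equalled 0.047 to 0.093 CPM (reads scaled to a common library total). Runx1, whose sequence the fusion contains, was at 218 to 244 CPM in ETV6-RUNX1 and 110 to 136 CPM in WT fetal liver libraries, and at 143 to 194 against 86.7 to 105 CPM in bone marrow, so the labels and this gene went the same way in both sources.

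Replication-dependent histone genes supply the core histones H2A, H2B, H3 and H4 and the linker histone H1 that package newly made DNA, and most of their mRNA is made in S phase. These genes lack introns in their main form, and their mRNAs usually end just after a conserved stem-loop instead of in a poly(A) tail. The stem-loop binding protein Slbp holds this structure during processing, translation and decay, and the U7 small nuclear RNA guides the cut. Some members can also give longer, polyadenylated mRNAs in cells that have left the cycle. The libraries were made from total RNA with a SMARTer stranded kit, so RNA with and without a poly(A) tail could both enter them.

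The stem-loop, a feature found in most members, is shown for 6 members discussed below. Hist1h1b and Hist1h2bc, also discussed below, are not shown because their annotated transcripts held no match. It was searched in the GENCODE M21 transcripts as 16 bases that open with GG, close with CC, form a stem of 6 base pairs and hold a loop of 4 bases that begins with TT. Capitals mark the stem-loop, and lower case the flanking bases, read 5′ to 3′ on the gene's strand.

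Hist1h1c: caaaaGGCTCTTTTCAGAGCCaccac
Hist1h1e: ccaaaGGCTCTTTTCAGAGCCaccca
Hist3h2a: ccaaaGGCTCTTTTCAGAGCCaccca
Hist1h2ap: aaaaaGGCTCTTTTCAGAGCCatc
Hist1h4d: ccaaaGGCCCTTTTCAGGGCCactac
Hist1h4i: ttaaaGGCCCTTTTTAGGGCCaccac

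In all, 42 of the 64 members held such a stem-loop in their annotated transcript, starting 22 to 59 bases after the stop codon (median 32.5). The form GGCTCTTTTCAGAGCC was carried by 24 members, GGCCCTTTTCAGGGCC by 7 and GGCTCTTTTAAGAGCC by 6. For Hist1h2ap the annotated transcript ended 3 bases after the loop, as a processed histone mRNA would. For Hist1h1c, Hist1h1e, Hist3h2a, Hist1h4d and Hist1h4i it ran on for 840, 1153, 1643, 770 and 330 bases. The 21 members with at least 150 annotated bases after the loop held 62.6% of the reads of the family, and the 21 with a shorter end held 6.01%. The 22 members with no match held 31.4%. Read shares rise with annotated length, and the medians of these sets, in the same order, were 0.91, 0.55 and 0.27 CPM per kb of annotated exon. Among the 22 members with no match, 14 had models that stop within 10 bases of the coding part. The gene models used for the deposited counts may differ from these ends, and whether the reads came from processed or from polyadenylated mRNA was not tested.

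Histone reads were a small part of every library. The summed level of the 64 members was 251 ± 35.8 CPM (SD, n = 3) in WT bone marrow, 330 ± 66.2 CPM in ETV6-RUNX1 bone marrow, 325 ± 16.96 CPM in WT fetal liver and 318 ± 39.4 CPM in ETV6-RUNX1 fetal liver. Single libraries spanned 221 to 406 CPM, or 9314 to 22160 reads. In bone marrow WT libraries held 291, 221 and 242 CPM and ETV6-RUNX1 libraries 295, 406 and 288 CPM, so that these groups overlapped. The fetal liver groups also overlapped, with 322, 310 and 344 CPM in WT and 292, 298 and 363 CPM in ETV6-RUNX1. Both overlaps rested on the H4 gene Hist1h4d. The sum of the other 63 members was 194, 172 and 184 CPM in WT and 243, 251 and 292 CPM in ETV6-RUNX1 fetal liver, and 145, 133 and 150 CPM in WT and 223, 318 and 165 CPM in ETV6-RUNX1 bone marrow. Without that gene, set aside after its values were seen, the ETV6-RUNX1 libraries lay above the WT libraries in both sources. The remaining sum was led by Hist1h2bc and Hist1h1c. Of the 26 members tested below, 13 had a log2 fold change above 0 and 13 below 0 in fetal liver, and 18 and 8 in bone marrow. The separation of this sum is therefore not a rise of every member. Other short RNAs without a poly(A) tail (a list of 12, including Rn7sk, Rmrp and Terc) summed to 3.64 to 16.5 CPM. The RNA of Rn7sk, which restrains transcription elongation, had 1.49 to 10.9 CPM, and 2 of the 12 passed the filter for testing. Whether short RNAs were lost before sequencing was not tested.

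**Figure D1:**
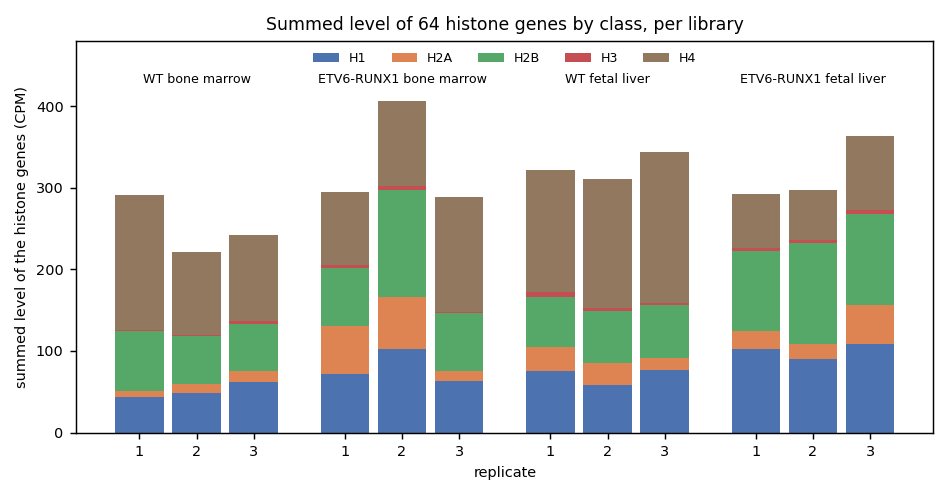
Summed level of the 64 histone genes in CPM (vertical axis) for each of the 12 libraries, split by protein class (colours), with replicates grouped by genotype and source. H4 takes 46.4% to 54.0% of the sum in WT fetal liver and 20.9% to 24.9% in ETV6-RUNX1 fetal liver, while H3 stays at 0.724 to 6.70 CPM in every library.

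A few members carried most of the signal. By reads, Hist1h4d held 32.7% of the summed level over the 12 libraries, Hist1h2bc 19.2%, Hist1h1c 11.7%, Hist1h1b 5.89% and Hist1h1e 5.73%, together 75.3%. These shares also rise with gene length and pool groups that differ: the 63 members other than Hist1h4d held 82.6% ± 1.96 (SD, n = 3) of the sum in ETV6-RUNX1 fetal liver and 56.4% to 70.4% on average in the other groups. Levels of different genes were ranked per kilobase of annotated exon. Over the 12 libraries Hist1h4d led on that scale with a mean of 88.03 CPM per kb, followed by Hist1h2bc at 50.9, Hist1h1b at 24.3, Hist1h1c at 22.9 and Hist1h4i at 15.1 CPM per kb. The H2A genes Hist1h2ap and Hist1h2ae followed at 10.06 and 9.28 CPM per kb. The order changed between groups. In ETV6-RUNX1 fetal liver Hist1h2bc was first at 74.01 CPM per kb, with Hist1h4d at 48.8 and Hist1h1c at 46.1, and in ETV6-RUNX1 bone marrow Hist1h2ap at 22.8 and Hist1h2ao at 20.7 were above Hist1h1b at 18.9 CPM per kb. Hist1h4d was first in the other 3 groups. Over all libraries the best H3 genes, Hist1h3e and Hist1h3g, reached only 0.97 and 0.81 CPM per kb, although each nucleosome holds as much H3 as H4.

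The low members are a large part of the family. Of the 64, 42 had a mean under 1 CPM and 26 reached at least 1 CPM in at least 3 libraries, the filter for testing; these were 5 H1, 7 H2A, 6 H2B, 2 H3 and 6 H4 genes. No reads were listed for Hist2h2aa1, Hist2h2aa2, Hist2h3b and Hist2h3c1, where the floor was 0.047 to 0.093 CPM per library. That sets no upper limit on their RNA, because reads shared with other genes may not have been assigned to them. These 4 lie within chromosome 3, positions 96239749 to 96269141 (GRCm38), overlap other annotated genes, and share nearly all their sequence with other genes: 0%, 11.7%, 0% and 22.9% of the 100-base windows of Hist2h2aa2, Hist2h2aa1, Hist2h3c1 and Hist2h3b were found in no other gene. Over the family, the 22 members with at least 75% unique windows held 69.6% of the reads and had a median of 1.16 CPM per kb. The 15 members with under 25% unique windows held 3.53%, with a median of 0.15 CPM per kb. How the counting treated reads with several matches is not given in the sources used here, so low levels of near-identical members are uncertain. The testis members had 0 to 0.60 CPM (the H1 gene Hist1h1t), 0 to 0.120 CPM (Hist1h2aa) and at most 0.030 CPM (the H2B gene Hist1h2ba).

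**Figure D2:**
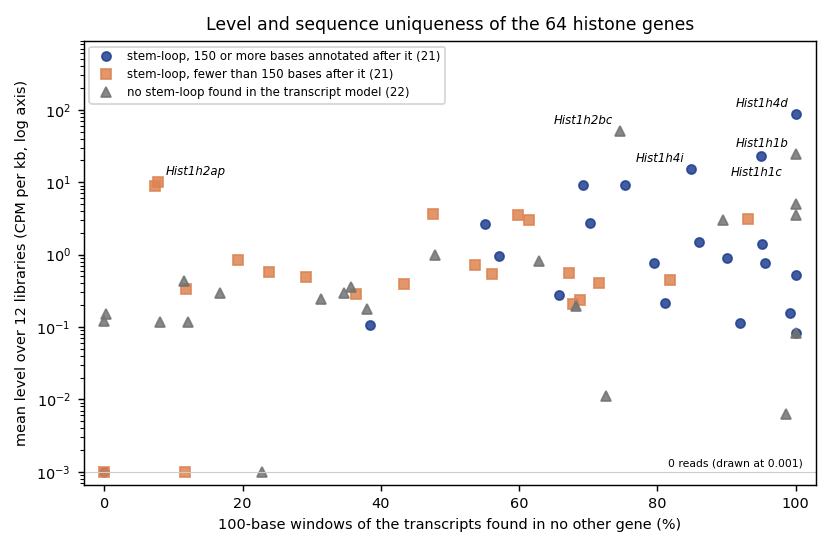
Mean level of each of the 64 histone genes over 12 libraries (vertical axis, CPM per kb of exon, log scale) against the share of 100-base windows of its transcripts found in no other gene (horizontal axis, percent); colours and shapes give the annotated 3′ end. The 6 labelled members have a mean above 10 CPM per kb; 5 of them lie at 74.6% unique windows or more, and Hist1h2ap lies at 7.83%.

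In fetal liver, ETV6-RUNX1 cells held less mRNA of the H4 gene Hist1h4d and of the linker histone gene Hist1h1b, and more of the linker histone gene Hist1h1c, the H2B gene Hist1h2bc and the H2A gene Hist3h2a. These 5 of the 26 tested members passed the test (limma on log2(CPM + 1), adjusted p under 0.05, hereafter a call), 3 higher and 2 lower. Among all 14271 genes tested 43.1% were called in this comparison, 24.8% higher and 18.3% lower, beside 19.2% of the tested members. The median log2 fold change of the 26 members was 0.00, with 13 above and 13 below 0, beside 0.08 for all genes. The ETV6-RUNX1 and WT libraries did not overlap for 9 of the 26 members (5 above and 4 below), or 34.6%, beside 55.6% of all genes tested. Fewer cells of a type and less RNA per cell cannot be told apart in such bulk samples. Fold changes on this scale understate the change of low genes.

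Hist1h4d (ENSMUSG00000061482, chromosome 13, 23581598 to 23582735, plus strand) encodes H4, a core histone of every nucleosome. Its level was 128, 138 and 160 CPM in WT and 49.2, 46.7 and 70.8 CPM in ETV6-RUNX1 fetal liver. All 3 ETV6-RUNX1 libraries lay below all WT libraries, and the mean was 2.55-fold lower (log2 fold change −1.36, SE 0.23, limma adjusted p = 0.000317). Other H4 genes did not pass the test: Hist1h4i was at 13.1, 12.05 and 15.03 CPM in WT and 10.1, 8.96 and 10.4 CPM in ETV6-RUNX1 (limma adjusted p = 0.125, or 0.0248 after quantile normalization), again with no overlap. The H4 class made up 50.4% ± 3.78 (SD, n = 3) of histone reads in WT and 22.9% ± 2.03 in ETV6-RUNX1 fetal liver. Without Hist1h4d these shares were 12.1% and 6.66%. Their base, the sum of the other 63 members, was 183 CPM in WT and 262 CPM in ETV6-RUNX1 fetal liver, so the shares do not give the change in level of the other H4 genes.

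Among the linker histones, Hist1h1c (ENSMUSG00000036181, chromosome 13, 23738808 to 23740367, plus strand) and Hist1h1b (ENSMUSG00000058773, chromosome 13, 21779883 to 21780625, minus strand) went in opposite directions. Linker histones bind the DNA between nucleosomes, and the subtypes differ in their tails. Hist1h1c was at 30.05, 14.7 and 28.1 CPM in WT and 70.7, 64.9 and 80.3 CPM in ETV6-RUNX1 fetal liver. The groups did not overlap, and the mean was 2.96-fold higher (log2 fold change 1.59, SE 0.33, limma adjusted p = 0.00171). Hist1h1b was at 19.3, 27.7 and 26.8 CPM in WT and 14.96, 10.04 and 11.1 CPM in ETV6-RUNX1. All 3 were below the lowest WT library, a 2.05-fold lower mean (log2 fold change −0.98, SE 0.24, limma adjusted p = 0.00469). Hist1h1e had 19.2, 14.2 and 16.4 CPM in WT and 13.1, 11.4 and 13.0 CPM in ETV6-RUNX1, a difference that did not pass the test (limma adjusted p = 0.245, or 0.0287 after quantile normalization). The H1 class made up 31.7% ± 2.88 of histone reads in ETV6-RUNX1 and 21.5% ± 2.34 in WT fetal liver.

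Hist1h2bc (ENSMUSG00000018102, chromosome 13, 23684199 to 23692908, plus strand) encodes H2B, the partner of H2A in the nucleosome, and its annotated transcript is spliced and holds no stem-loop. It was at 37.9, 44.0 and 45.5 CPM in WT and 72.7, 95.8 and 88.2 CPM in ETV6-RUNX1 fetal liver. The groups did not overlap, with a 2.02-fold higher mean (log2 fold change 0.99, SE 0.25, limma adjusted p = 0.00512). Hist2h2be, another H2B gene without a stem-loop in its annotated transcript, had 11.2, 10.7 and 9.24 CPM in WT and 13.2, 13.8 and 13.5 CPM in ETV6-RUNX1 (limma adjusted p = 0.115). H2B genes together gave 19.5% ± 0.960 of histone reads in WT and 35.3% ± 5.57 in ETV6-RUNX1 fetal liver.

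Hist3h2a (ENSMUSG00000078851, chromosome 11, 58954685 to 58956830, plus strand) encodes H2A in the small Hist3 cluster. Its level was 3.39, 3.06 and 4.19 CPM in WT and 9.69, 9.23 and 11.4 CPM in ETV6-RUNX1 fetal liver, with no overlap. The mean was 2.85-fold higher (log2 fold change 1.29, SE 0.25, limma adjusted p = 0.00106). Its exons overlap those of Trim17 on the same strand, so reads of the 2 genes may not be separable. Its neighbour Hist3h2ba, an H2B gene, was at 0.602 to 1.15 CPM in WT and 0.525 to 1.29 CPM in ETV6-RUNX1. Hist4h4, alone in its cluster, was at 1.34 to 2.67 against 2.01 to 3.03 CPM. Neither passed the test (limma adjusted p = 0.947 and 0.717).

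**Figure D3:**
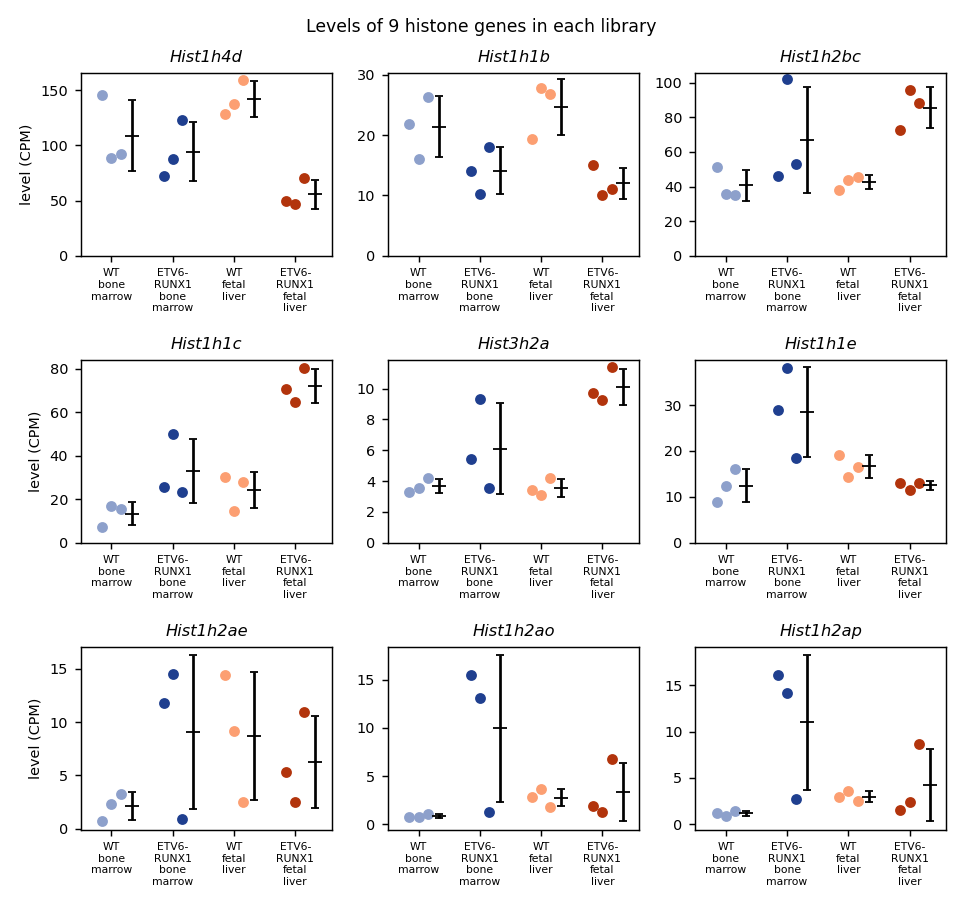
Level in CPM (vertical axis, separate scale for each gene) of 9 histone genes in the 12 libraries; points are libraries, and the black marks beside them are the group mean ± SD (n = 3). In fetal liver the ETV6-RUNX1 points lie below the WT points for Hist1h4d and Hist1h1b and above them for Hist1h2bc, Hist1h1c and Hist3h2a, while in the 3 H2A panels of the bottom row the ETV6-RUNX1 bone marrow libraries split into 2 high and 1 low.

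In bone marrow, 4 of the 26 tested members were called, all of them higher in ETV6-RUNX1 cells: the linker histone genes Hist1h1c and Hist1h1e and the H2A genes Hist1h2ap and Hist1h2ao. Of all genes tested 19.4% were called here, 14.4% higher and 4.93% lower, against 15.4% of the members. No member was called lower by limma; at an unadjusted p under 0.05, 1 was lower (Hist1h1b), edgeR called 0 lower, and DESeq2 called 1 (Hist1h1b). With limma Hist1h1b was called lower after quantile normalization (adjusted p = 0.0346) or without ETV6-RUNX1 replicate 3 (0.0477). The median log2 fold change of the members was 0.28, with 18 of 26 above 0, beside 0.13 for all genes. The groups did not overlap for 5 of the 26 members (the 4 called above, and Hist1h1d below, named after its values were seen), beside 34.5% of all genes tested. Median-of-ratios scaling brought the median of all genes in this comparison to 0.01 and the share of calls that were higher from 74.5% to 53.0%, and all 4 members stayed called under that scaling.

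Hist1h1c was at 7.31, 17.02 and 15.6 CPM in WT and 25.8, 49.95 and 23.4 CPM in ETV6-RUNX1 bone marrow, a 2.48-fold higher mean with no overlap (log2 fold change 1.25, SE 0.33, limma adjusted p = 0.0194). The call was lost without ETV6-RUNX1 replicate 2 (adjusted p = 0.0939) or without WT replicate 1 (0.0668), with no filter on low genes (0.0786), and with only the bone marrow libraries in the fit (0.0526). The difference between its effects in fetal liver and bone marrow was 0.34 on the log2 scale (SE 0.47) and did not pass the test (limma adjusted p = 0.688). Hist1h1e (ENSMUSG00000051627, chromosome 13, 23620629 to 23622558, minus strand) was at 8.78, 12.4 and 16.1 CPM in WT and 29.0, 38.1 and 18.5 CPM in ETV6-RUNX1 bone marrow. Its mean was 2.29-fold higher, again with no overlap (log2 fold change 1.12, SE 0.25, limma adjusted p = 0.00823), and it passed the threshold in all 21 alternative analyses. Exons of Hist1h1e overlap those of Hist1h2be and of the pseudogene Gm11398 on the same strand. The other abundant members overlapped between the groups, among them Hist1h4d with 146, 88.2 and 92.2 CPM in WT and 71.98, 87.9 and 123.5 CPM in ETV6-RUNX1 bone marrow (limma adjusted p = 0.571).

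The H2A genes of the Hist1 cluster set 1 bone marrow library apart. Hist1h2ap (ENSMUSG00000094777, chromosome 13, 21833026 to 21833507, minus strand) was at 1.28, 0.896 and 1.42 CPM in WT and 16.1, 14.1 and 2.69 CPM in ETV6-RUNX1 bone marrow, a 9.17-fold higher mean (log2 fold change 2.17, SE 0.52, limma adjusted p = 0.011). Hist1h2ao (ENSMUSG00000094248, chromosome 13, 21810465 to 21810944, plus strand) was at 0.705, 0.721 and 1.05 CPM in WT and 15.5, 13.1 and 1.27 CPM in ETV6-RUNX1, a 12.1-fold higher mean (log2 fold change 2.15, SE 0.60, limma adjusted p = 0.0232). Only 7.83% and 7.35% of the 100-base windows of these genes are unique, so the 2 results may rest on shared reads and are uncertain as single genes. The call of Hist1h2ap was lost without ETV6-RUNX1 replicate 2 (limma adjusted p = 0.0542) and with no filter (0.0605). That of Hist1h2ao was lost without ETV6-RUNX1 replicate 1 or 2 or WT replicate 1 or 2 (limma adjusted p = 0.0965, 0.102, 0.0519 and 0.0571), with no filter (0.102) and with only the bone marrow libraries (0.0557). Hist1h2ae, of which 69.3% is unique, was at 0.724, 2.38 and 3.29 CPM in WT and 11.8, 14.497 and 0.897 CPM in ETV6-RUNX1 (limma adjusted p = 0.218). In these 3 genes ETV6-RUNX1 replicates 1 and 2 were high and replicate 3 was near the WT level. The H2A class summed to 7.43, 11.04 and 14.1 CPM in WT and to 58.7, 64.3 and 12.5 CPM in ETV6-RUNX1 bone marrow. In fetal liver it was 29.6, 25.97 and 14.3 CPM in WT and 22.3, 18.7 and 47.2 CPM in ETV6-RUNX1, so replicate 3 was the highest ETV6-RUNX1 library and the lowest WT library there.

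The same libraries stood out for 2 H2A variants outside the clusters, named here after their values were seen. H2afx, the variant that is phosphorylated at DNA breaks, was at 13.2, 19.0 and 28.4 CPM in WT and 181, 204 and 25.96 CPM in ETV6-RUNX1 bone marrow, and at 37.6, 18.5 and 91.4 CPM in ETV6-RUNX1 fetal liver. H2afj was at 11.6, 11.9 and 18.2 CPM in WT and 86.2, 152 and 13.7 CPM in ETV6-RUNX1 bone marrow. Both were called higher in ETV6-RUNX1 bone marrow (limma adjusted p = 0.0278 for H2afx and 0.0443 for H2afj), with the same split of replicate 3 from the other two. The number of bone marrow calls among the members depended on these libraries: without ETV6-RUNX1 replicate 3 it was 9, among them Hist1h2ae and Hist3h2a, and without ETV6-RUNX1 replicate 2 it was 1, Hist1h1e. Calls among all 14271 genes tested moved as well, from 2763 to 2924 without replicate 3 and to 1520 without replicate 2. Summed markers of megakaryocytes (5 of 5 found) also varied between these libraries, at 635, 1896 and 460 CPM in ETV6-RUNX1 replicates 1 to 3 and 1335 to 1744 CPM in WT bone marrow; their part in the result was not tested. Hist1h2bc, at 45.9, 101.9 and 52.8 CPM, was also highest in replicate 2 (WT 51.1, 35.7 and 35.3 CPM), and did not pass the test in bone marrow (limma adjusted p = 0.0836), though it did without ETV6-RUNX1 replicate 1 (0.0402) or WT replicate 1 (0.0487).

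**Figure D4:**
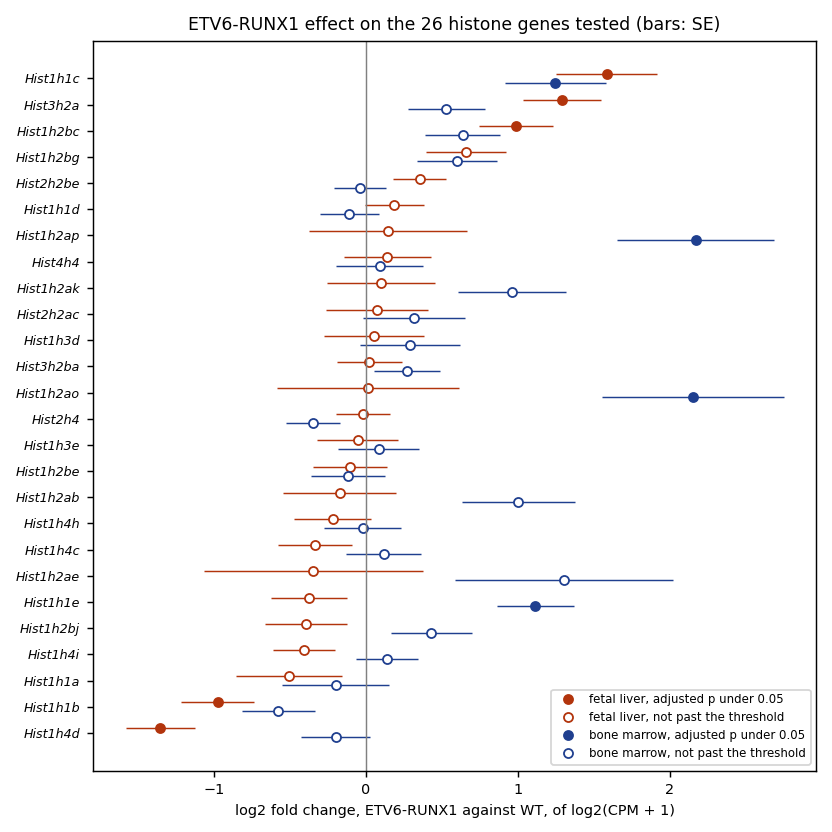
Log2 fold change of ETV6-RUNX1 against WT, on the log2(CPM + 1) scale (horizontal axis), for the 26 histone genes tested, with bars of 1 SE; red is fetal liver and blue bone marrow, and filled points have a limma adjusted p under 0.05. In fetal liver 3 genes are called to the right and 2 to the left, in bone marrow 4 are called to the right, and Hist1h1c is filled in both.

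The ETV6-RUNX1 effect differed between the sources for 2 of the 26 members, Hist1h1e and Hist1h4d, against 9.19% of all genes tested (3.62% with the fetal liver effect lower and 5.56% with it higher). The interaction for Hist1h1e was −1.49 on the log2 scale (SE 0.36, limma adjusted p = 0.0187): it was higher in ETV6-RUNX1 bone marrow, while its fetal liver value was −0.38 (SE 0.25). This call was lost with no filter (adjusted p = 0.0661). For Hist1h4d it was −1.16 (SE 0.32, limma adjusted p = 0.0384), and this call was lost in 11 of 20 alternatives, with adjusted p from 0.0068 to 0.123 over them. The libraries whose loss ended it were replicates 2 and 3 of each WT group and of ETV6-RUNX1 bone marrow, and replicates 1 and 2 of ETV6-RUNX1 fetal liver (limma adjusted p = 0.0527 to 0.103). The median interaction over the members was −0.25, with 17 of 26 below 0, beside −0.05 for all genes. No member had a called interaction above 0; at an unadjusted p under 0.05 there were 0 higher and 6 lower members, and edgeR and DESeq2 called 0 higher.

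Fetal liver and bone marrow were also compared within each genotype; these comparisons share libraries with those above. In WT cells 1 of 26 members was called, beside 11.1% of all genes (3.38% higher and 7.77% lower in fetal liver): Hist1h2bj, an H2B gene named after its value was seen, at 0.80, 0.838 and 0.623 CPM in bone marrow and 3.24, 1.77 and 2.65 CPM in fetal liver (log2 fold change 1.00, SE 0.27, limma adjusted p = 0.0255). The call was lost without WT bone marrow replicate 2 or 3 or WT fetal liver replicate 1 or 3, which left 0 calls. With no filter it was lost too, and Hist1h2ag and Hist1h3h were called instead. The median log2 fold change of the members was 0.42, with 23 of 26 above 0, beside −0.07 for all genes. The sources did not overlap for 6 of the 26 members, 5 of them above in fetal liver, beside 29.5% of all genes tested. The H4 gene Hist1h4d, at 128 to 160 CPM in fetal liver and 88.2 to 146 CPM in bone marrow, did not pass the test (limma adjusted p = 0.28).

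In ETV6-RUNX1 cells 5 of 26 members were called, beside 28.6% of all genes (10.4% higher and 18.2% lower in fetal liver), with a member median of −0.02 and an all-gene median of −0.16. The sources did not overlap for 5 of the 26, beside 42.2% of all genes tested. Hist1h1c was higher in fetal liver (2.18-fold, log2 fold change 1.17, SE 0.33, limma adjusted p = 0.0175), and Hist1h1e was lower (2.28-fold, log2 fold change −1.07, SE 0.25, limma adjusted p = 0.00579). Hist1h4d was 1.70-fold lower (limma adjusted p = 0.0251), and Hist3h2a was 1.66-fold higher with overlapping libraries (limma adjusted p = 0.0466). The H4 gene Hist2h4, named after its values were seen, was at 1.11, 1.10 and 1.26 CPM in fetal liver and 0.378, 0.124 and 0.557 CPM in bone marrow (limma adjusted p = 0.0103). Of these, Hist1h1e was called in all 21 alternatives, Hist2h4 in 19 of 20, Hist1h1c in 17, Hist1h4d in 14 and Hist3h2a in 6 of 21. Leaving out ETV6-RUNX1 bone marrow replicate 1 or 3 or fetal liver replicate 3 ended the call of Hist1h1c (limma adjusted p = 0.068, 0.0669 and 0.0542), as did using no filter (0.0698). Leaving out bone marrow replicate 3 or fetal liver replicate 1 or 2 ended that of Hist1h4d (0.107, 0.0903 and 0.0957), as did no filter (0.0812), median-of-ratios scaling, edgeR (both 0.110) and DESeq2 (0.0748). The call of Hist3h2a was lost without any 1 of 10 libraries, with adjusted p up to 0.192. Without ETV6-RUNX1 bone marrow replicate 1, or without fetal liver replicate 1 or 2, 3 members were called. Source cannot be told apart from age, or from the sex of the animals where that differed: Xist, the RNA of the inactive X chromosome, was at 0.175 to 1.27 CPM in bone marrow and 51.7 to 89.3 CPM in fetal liver libraries.

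The promoters of 5 called members are printed because their levels moved in different directions, so that their shared and unshared elements can be seen. Histone promoters are known to hold CCAAT boxes, TATA-like elements and, in H2B genes, octamers. The sequences are the 150 bases before the start in RefSeq (GRCm38.p6), 5′ to 3′ on the gene's strand. Capitals mark motif matches on either strand. The motif of the CCAAT box was CCAAT, which reads ATTGG where reversed. For the TATA-like element it was TATAAA. The octamer was searched as ATTTGCAT, which appears reversed in the promoter of Hist3h2a as ATGCAAAT. Matches of different motifs were allowed to overlap.

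Hist1h1c, chr13:23738657-23738806, plus strand: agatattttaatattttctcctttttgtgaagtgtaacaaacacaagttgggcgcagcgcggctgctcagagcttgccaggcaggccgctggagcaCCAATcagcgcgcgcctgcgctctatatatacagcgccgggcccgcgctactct
Hist3h2a, chr11:58954535-58954684, plus strand: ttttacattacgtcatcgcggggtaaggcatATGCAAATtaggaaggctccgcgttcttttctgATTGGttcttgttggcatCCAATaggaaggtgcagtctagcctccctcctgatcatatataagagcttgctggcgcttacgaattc
Hist1h1b, chr13:21780626-21780775, minus strand: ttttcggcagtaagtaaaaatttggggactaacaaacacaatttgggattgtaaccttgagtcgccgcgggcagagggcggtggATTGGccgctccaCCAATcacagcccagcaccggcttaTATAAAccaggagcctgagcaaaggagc
Hist1h1e, chr13:23622559-23622708, minus strand: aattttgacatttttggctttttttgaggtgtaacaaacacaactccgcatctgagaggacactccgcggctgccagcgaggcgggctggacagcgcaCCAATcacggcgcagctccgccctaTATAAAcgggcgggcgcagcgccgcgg
Hist1h4d, chr13:23581418-23581567, plus strand: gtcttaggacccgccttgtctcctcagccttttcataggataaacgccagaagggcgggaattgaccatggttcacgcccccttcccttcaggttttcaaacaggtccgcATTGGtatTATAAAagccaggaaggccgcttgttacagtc

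Hist1h1c, higher in ETV6-RUNX1 cells of both sources, and Hist1h1b, lower in fetal liver, both held a CCAAT match, as did all 6 H1 promoters. Hist3h2a held 2 such matches and an octamer match. Over the 300-base windows (250 before to 50 after the start) of the 59 members found in RefSeq, a CCAAT match was present in 84.7%, beside 37.4% of 32851 promoters. It was found in 18 of 18 H2A, 13 of 13 H2B and 10 of 10 H3 promoters and in 3 of 12 H4 promoters. The TATAAA motif was present in 59.3% of the members and 13.6% of all promoters. The octamer was present in 20.3% and 1.74%, in 7 H2A and 5 H2B promoters. Windows of some neighbouring H2A and H2B genes, such as Hist1h2ae and Hist1h2bg, overlap on opposite strands, so a shared match was counted for both genes. A match is a description of these letters and not a bound site.

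Genes that make, process and use histone mRNA were followed with fixed lists. In fetal liver 25 of the 40 S phase and DNA replication genes fell in ETV6-RUNX1 cells, among them the sliding clamp gene Pcna (259 ± 25.4 CPM in WT and 138 ± 3.75 CPM in ETV6-RUNX1, SD, n = 3, log2 fold change −0.90, limma adjusted p = 0.000229). In bone marrow 16 of the 40 fell and 1 rose. Of 20 genes of G2 and mitosis 17 fell in fetal liver and 8 in bone marrow. Over all genes tested 18.3% fell in fetal liver and 4.93% in bone marrow, smaller shares than in either list. The list medians for S phase were −0.55 in fetal liver and −0.43 in bone marrow, beside medians of 0.00 and 0.28 for the histone members in the same comparisons. For each 100 CPM of the S phase list, histone genes gave 3.53 ± 0.880 CPM (SD, n = 3) in WT and 6.33 ± 2.37 CPM in ETV6-RUNX1 bone marrow. In fetal liver they gave 5.63 ± 0.766 CPM in WT and 8.39 ± 1.99 CPM in ETV6-RUNX1. The ETV6-RUNX1 libraries lay above the WT libraries in both sources, at 4.83 to 9.06 against 2.95 to 4.54 in bone marrow and 6.99 to 10.7 against 4.97 to 6.47 in fetal liver. The S phase sum itself averaged 5821 CPM in WT and 3847 CPM in ETV6-RUNX1 fetal liver, and 7234 and 5411 CPM in bone marrow. Histone sums averaged 325 and 318 CPM in fetal liver and 251 and 330 CPM in bone marrow. In fetal liver the higher ratio thus came with a lower S phase sum and not with a higher histone sum.

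Of 16 tested genes of histone transcription and 3′ processing, 3 fell in fetal liver: Cpsf3, the endonuclease that cuts histone pre-mRNA (190 ± 15.7 to 113 ± 15.1 CPM, log2 fold change −0.75, limma adjusted p = 0.000369), the cap-binding gene Ncbp1 (−0.71, 0.00728) and Casp8ap2, a histone locus body gene (−0.32, 0.0491). That is 18.75% of the list, near the 18.3% of all genes that fell. Cpsf3 fell in bone marrow too (−0.60, limma adjusted p = 0.00608), where Srrt rose (0.59, 0.0268). Slbp was at 151, 207 and 201 CPM in WT and 147, 130 and 157 CPM in ETV6-RUNX1 fetal liver, overlapping groups that did not pass the test (log2 fold change −0.35, limma adjusted p = 0.077). In bone marrow its value was 0.02 (limma adjusted p = 0.955). Npat, the coactivator of histone genes at the histone locus body, was at 24.2 to 40.8 CPM in WT and 36.5 to 49.5 CPM in ETV6-RUNX1 fetal liver (limma adjusted p = 0.336).

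Of the 9 genes of histone mRNA decay 5 rose in ETV6-RUNX1 fetal liver, or 55.6%, beside 24.8% of all genes. They included the uridylyl transferase gene Tut7 (25.6 ± 7.20 to 75.8 ± 3.96 CPM, log2 fold change 1.56, limma adjusted p = 8.87e-05), the exonuclease gene Xrn1 (29.1 ± 5.31 to 68.4 ± 7.61 CPM, 1.21, 0.000224) and Eri1, an exonuclease that trims the stem-loop (28.03 ± 3.22 to 49.4 ± 3.06 CPM, 0.80, 0.000604). In bone marrow 1 rose, the helicase gene Upf1 (0.66, limma adjusted p = 0.0111), or 11.1%, beside 14.4% of all genes. Of 12 tested replication-independent variants, 3 fell in fetal liver: H2afz (log2 fold change −1.13), the centromeric H3 gene Cenpa (−0.70) and H3f3a (−0.60). Of all genes tested 18.3% fell and 43.1% were called in either direction. In bone marrow 4 rose and 2 fell, beside 19.4% of all genes called; H2afz fell by 0.72 on the log2 scale, and the linker variant H1f0 rose (1.00) with 168, 165 and 77.5 CPM in ETV6-RUNX1 against 54.6, 59.03 and 80.9 CPM in WT, so replicate 3 again lay within the WT range. Of 21 tested chaperones 3 rose and 7 fell in fetal liver, or 47.6% called, near the 43.1% of all genes, with Daxx, a chaperone of H3.3, higher (2.07) and the replication-coupled chaperone genes Chaf1b (−0.89) and Asf1b (−1.12) lower. In bone marrow 1 rose (Daxx, 0.82) and 3 fell, among them Asf1b (−0.68) and Nasp (−0.52), or 19.05% called beside 19.4%. 

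The cell markers varied with the groups too. Summed markers of HSCs and progenitors (9 of 9 found) were at 3107 to 3680 CPM in ETV6-RUNX1 and 1758 to 2155 CPM in WT fetal liver. In bone marrow they were at 2467 to 3038 against 1790 to 2839 CPM. B-cell and T-cell or NK-cell markers were at 0.374 to 1.89 and 0.557 to 2.33 CPM in all libraries. Megakaryocyte markers were at 6459 to 7124 CPM in ETV6-RUNX1 and 2936 to 4250 CPM in WT fetal liver. Erythroid markers (6 of 6 found) were at 209 to 262 against 83.2 to 105 CPM. Endothelium markers (4 of 4 found) were at 221 to 301 CPM in ETV6-RUNX1 and 83.6 to 124 CPM in WT fetal liver. This sum rested mostly on Tek and Pecam1, which reached 127 and 155 CPM over the 12 libraries, while Cdh5 and Kdr reached at most 15.6 and 8.82 CPM. Mast cell and basophil markers (4 of 4 found) went the other way, at 2.96 to 5.22 against 7.01 to 11.2 CPM. The share of the histone differences in fetal liver that moves with these marker sums was not tested.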

How the data were processed

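RNA of 12 libraries (4 groups of 3, grouped by the labels' titles) was deposited by the authors as a table of CPM, reads per gene scaled to a common library total; its column of transcripts per gene, a deposited whole-number count, was not tested. The submitters' processing notes list bcl2fastq, STAR 2.5.1a, Subread featureCounts 1.4.6-p5, Salmon 0.8.2, edgeR, limma and the build GRCm38, with no role given; the annotation release, the use of strand and the treatment of reads with several matches are not given in the sources used here. In every column 100% of values were whole multiples of a step (tolerance 0.01), which returned whole reads. Of 40757 entries, 276 repeated a gene ID.

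Values were tested as log2(CPM + 1) in the 14271 genes that reached 1 CPM in 3 or more libraries, with limma 3.58.1 (R 4.3.3), a mean-variance trend, a coefficient for each group, 8 residual degrees of freedom, two-sided, with Benjamini-Hochberg adjustment over all genes tested and a threshold of 0.05. Sums over members have no test. The alternatives were a pseudocount of 0.1, no filter, a mean of at least 5 CPM, scaling by median of ratios or by quantiles, a block for the replicate number, edgeR 4.0.16 (quasi-likelihood, TMM) and DESeq2 1.42.0 on the whole reads, a fit of the compared libraries alone, and each library left out. Scripts were tested on simulated data.

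Positions, exon lengths, stem-loops and unique windows came from GENCODE M21 (GRCm38), and promoters from RefSeq (59 of 64 members matched by gene ID). GENCODE M21 lists 67 protein-coding genes of these clusters; 3 were not analysed here. The floor of 3 reads covers counting error only, because without molecular identifiers reads cannot be taken as separate molecules.

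Members, lists and tests were chosen with earlier results of these data known. Named members were, where either group compared averaged 5 CPM or more, up to 6 called rises and 6 called falls for each ETV6-RUNX1 comparison and up to 5 calls for the others, the 2 highest per kilobase in each class, all Hist3 and Hist4 genes, and 3 testis genes; for each list, up to 3 called genes with the smallest p, with Slbp, Npat and Casp8ap2. Context genes listed under older names were matched through RefSeq synonyms.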

Additional observations from a re-analysis of the deposited data

Results flagged for a closer look

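The H1 gene Hist1h1e and the H4 gene Hist1h4d differed between the sources in their response to ETV6-RUNX1 by the interaction test. For Hist1h1e the fetal liver effect minus the bone marrow effect was −1.49 on the log2 scale (SE 0.36, limma adjusted p = 0.0187), with 3 of 3 ETV6-RUNX1 libraries above the WT libraries in bone marrow and 3 of 3 below them in fetal liver. The difference no longer passed with no filter on low genes (adjusted p = 0.0661). Its exons overlap those of Hist1h2be and Gm11398 on the same strand, and the part of shared reads was not tested. For Hist1h4d the difference was −1.16 (SE 0.32, limma adjusted p = 0.0384), with 3 of 3 ETV6-RUNX1 libraries below the WT libraries in fetal liver and overlapping libraries in bone marrow; it no longer passed in 11 of 20 alternatives.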

How the results depend on the processing

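No called result changed direction under any alternative run, while values near 0 that did not pass the test, such as the fetal liver median of the members, crossed 0. All 5 fetal liver calls (Hist1h1c, Hist3h2a, Hist1h2bc, Hist1h4d and Hist1h1b) and the bone marrow call of Hist1h1e held in all 21 alternatives. A mean of at least 5 CPM left 9 of the 64 members. Hist1h2ap, Hist1h2ao, Hist1h2bj and Hist2h4 were then not tested, so their calls ended there by exclusion. The cause of the other changes below was not tested. The number of fetal liver calls was 9 with no filter and 5 to 6 with a library left out; the member median was −0.35 where a mean of 5 CPM was required, −0.20 after quantile normalization and −0.19 to 0.074 with a library left out. Bone marrow calls numbered 2 for a mean of at least 5 CPM, 7 by DESeq2, 2 with only the libraries compared, 3 with no filter (Hist1h1e, Hist1h2af and Hist1h2ag, so that 3 of the 4 calls were lost) and 1 to 9 with a library left out, and the median with a pseudocount of 0.1 was 0.60. Interaction calls numbered 2 with no filter (Hist1h2af and Hist1h2ag, with Hist1h1e and Hist1h4d lost), 1 after median-of-ratios scaling, 1 by edgeR, 4 by DESeq2 and 1 to 4 with a library left out (4 when ETV6-RUNX1 bone marrow replicate 3 was left out, and 1 without any of WT bone marrow replicates 2 and 3, WT fetal liver replicates 2 and 3 or ETV6-RUNX1 fetal liver replicates 1 and 2), and the median with a pseudocount of 0.1 was −0.49. For fetal liver against bone marrow in WT, calls numbered 2 with no filter (Hist1h2ag and Hist1h3h, with Hist1h2bj lost), 0 for a mean of at least 5 CPM, 2 by DESeq2, 3 with only the libraries compared and 0 to 2 with a library left out. Its median was 0.60 with a pseudocount of 0.1, 0.13 with no filter, 0.50 after median-of-ratios scaling, 0.49 after quantile normalization, 0.73 by edgeR, 0.72 by DESeq2 and 0.33 to 0.42 with a library left out. In ETV6-RUNX1 cells calls numbered 3 for a mean of at least 5 CPM, 3 with only the libraries compared and 3 to 6 with a library left out; with no filter they numbered 4, of which Hist1h1e and Hist2h4 were among the 5. The median of all genes moved from 0.08 to −0.10 in fetal liver after quantile normalization, where the share of calls that were higher went from 57.6% to 42.0%. Without Hist1h4d the summed level was 142.5 CPM in WT bone marrow, 235 CPM in ETV6-RUNX1 bone marrow, 183 CPM in WT fetal liver and 262 CPM in ETV6-RUNX1 fetal liver. For the sum of all 64 members in WT fetal liver, median-of-ratios scaling gave 350 CPM, beside 325 CPM as deposited.

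Replicate numbers recur in the 4 groups, but same-numbered libraries did not deviate together (correlations of −0.44 to 0.39), so they were taken to share only a number. With the replicate block, 5 members were called in fetal liver, 4 in bone marrow, 2 for the interaction, and 1 and 4 for fetal liver against bone marrow in WT and ETV6-RUNX1; the 1 named call that differed was Hist3h2a in the last (limma adjusted p = 0.0693). At these depths, members under about 1 CPM, 42 of 64, were mostly not tested.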
